A study of Mus musculus with 20 samples.

Results

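The transcripts described here are those of 7 genes that a B cell precursor uses to build and test its immunoglobulin: Igll1, Vpreb1, Vpreb2 and Vpreb3, named for the surrogate light chain, and Rag1, Rag2 and Dntt, the recombination genes. They were picked by symbol from the 25869 genes, listed by Entrez identifier, of the deposited RNA-seq table, and all 7 were present in it. Levels are given in CPM, the reads of a gene scaled to the same total of gene reads in every library. The table held 20 libraries, of which 10 were of the B lineage and 10 of mouse embryonic fibroblasts (MEFs), which served as a background because these genes are not used there.

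All lymphomas arose from Eµ-Myc/dCas9-SAM foetal liver stem and progenitor cells that carried a guide RNA against the Bcl2 gene (sgBCL-2) and were transplanted into lethally irradiated female C57BL/6-Ly5.1 recipients. Eµ-Myc drives Myc from an immunoglobulin heavy chain enhancer, and dCas9-SAM is a nuclease-dead Cas9 activator, expressed from the Rosa26 locus by the ubiquitous CAG promoter, so every lymphoma group shares the Myc transgene, the activator and the guide. Cell lines grown from these tumours, each from 1 mouse, were labelled IgM positive (14_179_IgMp, 15_180_IgMp, 16_202_IgMp and 17_213_IgMp, n = 4) or IgM negative (18_214_IgMn and 19_216_IgMn, n = 2), where the second number is that of the mouse; values of a group are given in this order. Another 2 libraries were of IgM-positive primary tumour tissue from the mice that gave 14_179_IgMp and 15_180_IgMp. Titles (20_180_Tumour_IgMp, 21_179_Tumour_IgMp) and descriptions (20_179_Tumour_IgMp, 21_180_Tumour_IgMp) disagree on the mouse, and the names tumour library 20 and tumour library 21 are used. The comparison tumours were cells of 2 preB-ALL, a leukaemia driven by BCR-ABL1 (p190T/+), with the label names P190CreERLSLErg (preB-ALL 1) and P190RagCreErg (preB-ALL 2). The names of both hold Erg and Cre elements, and neither says which Rag gene the Cre of the second belongs to. The leukaemia cells were grown with IL7 and their RNA was taken with another kit and run on another flow cell, so kind of tumour, culture and preparation cannot be told apart in any comparison with preB-ALL. The MEFs were wild-type (n = 2), or carried the activator with no guide (n = 2), a non-targeting guide (n = 2) or a Bcl2 guide (n = 4). For the MEFs n counts libraries: the 4 with a Bcl2 guide bear the MEF line numbers 1 and 2, as do those with no guide or a non-targeting guide. Each lymphoma line, tumour tissue and leukaemia gave 1 library, so p-values measure the spread between these libraries only.

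Genes were counted from 20053004 to 26678417 reads per library in the lymphoma lines and tumours, from 14970269 and 12474885 reads in the preB-ALL, and from 18854501 to 26560233 reads in the MEFs. The B lineage label held in all 10 libraries: the summed level of 10 B lineage markers lay between 2887 and 13792 CPM, against at most 28.2 CPM in the MEFs. Lines labelled IgM negative still had reads of Ighm, the heavy chain gene, with 1178 and 1441 CPM in the IgM-negative lines against 1462 to 2711 CPM in the IgM-positive lines. Of the 12 T cell and thymocyte markers, Cd8a, Cd8b1, Cd4 and Themis had no read in any of the 6 lines, and all 12 summed to 7.46 to 62.9 CPM there; these belong to the other lineage that uses Rag1, Rag2 and Dntt. Summed fibroblast markers reached 1677 and 3731 CPM in the 2 preB-ALL against at most 56.3 CPM in the lines and 172 CPM in the tumours. The 7 genes themselves were at or below 0.798 CPM in every MEF library.

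In the bone marrow a pro-B cell first joins the D and J and then the V segments of the heavy chain gene. RAG1 and RAG2 together form the recombinase that cuts at the signal sequences beside these segments, and terminal deoxynucleotidyl transferase, the product of Dntt, adds untemplated bases to the cut ends, mostly at the heavy chain. A finished heavy chain pairs with the surrogate light chain, made of λ5 from Igll1 and of a VpreB protein from Vpreb1 or Vpreb2, and this pre-B cell receptor signals for a burst of division in the large pre-B cell. The surrogate light chain genes and Dntt are then silenced, the Rag genes are used once more to join the light chain, and the immature B cell that carries IgM shuts them off. Vpreb3 is a relative of Vpreb1 whose protein stays inside the cell with newly made heavy chains and whose transcript is kept longer. A pro-B pattern thus combines Rag1, Rag2, Dntt and the surrogate light chain, and an immature B pattern has little of any but Vpreb3.

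The stretches of 250 bases before the RefSeq start sites (GRCm38.p6) of Igll1, Vpreb1, Vpreb2 and Rag1 are shown because, of the 7 genes, these are the ones whose stretches hold letters of factors that act on this programme. They were searched on both strands for CCCNNGGG (EBF1), CAGGTG (the E box of E proteins), TGGGAA (Ikaros) and TGTTTAC (FOXO1), and capitals mark the matches, none of which overlap. The Vpreb2 start site of this table lies inside the gene span given for Vpreb2 here, so its window is also within that span.
Igll1, chr16:16863986-16864235, minus strand: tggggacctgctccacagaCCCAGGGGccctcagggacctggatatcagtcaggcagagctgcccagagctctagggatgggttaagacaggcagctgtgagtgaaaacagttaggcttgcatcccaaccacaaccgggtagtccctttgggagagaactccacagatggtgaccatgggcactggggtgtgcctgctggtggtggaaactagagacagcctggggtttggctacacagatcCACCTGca
Vpreb1, chr16:16869256-16869505, minus strand: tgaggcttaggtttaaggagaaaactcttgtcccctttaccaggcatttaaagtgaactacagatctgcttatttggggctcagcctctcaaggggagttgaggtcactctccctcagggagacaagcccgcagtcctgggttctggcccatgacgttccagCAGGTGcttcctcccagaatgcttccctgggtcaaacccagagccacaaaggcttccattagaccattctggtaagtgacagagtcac
Vpreb2, chr16:17980315-17980564, plus strand: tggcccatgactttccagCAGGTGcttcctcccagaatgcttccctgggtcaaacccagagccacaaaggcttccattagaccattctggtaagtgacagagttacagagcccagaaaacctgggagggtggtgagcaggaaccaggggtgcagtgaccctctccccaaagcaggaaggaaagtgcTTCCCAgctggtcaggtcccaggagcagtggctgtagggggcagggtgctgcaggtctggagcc
Rag1, chr2:101649533-101649782, minus strand: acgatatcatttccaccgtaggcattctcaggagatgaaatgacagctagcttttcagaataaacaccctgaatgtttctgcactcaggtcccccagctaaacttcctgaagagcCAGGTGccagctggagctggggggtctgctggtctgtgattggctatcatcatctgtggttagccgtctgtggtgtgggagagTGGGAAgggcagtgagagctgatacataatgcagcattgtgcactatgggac

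Over 27025 RefSeq mouse genes, the same windows held CCCNNGGG in 11.7%, CAGGTG in 17.1%, TGGGAA in 21.5% and TGTTTAC in 3.09%. The E box was in 4 of the 7 members, those chosen for display, and in Igll1 ended 3 bases before the start site, and Igll1 alone of the 7 genes held CCCNNGGG. Vpreb3, Rag2 and Dntt held none of the 4 motifs in their windows. The E boxes of Vpreb1 and Vpreb2 lay in one shared block of 103 bases that differed by 1 base, from 106 to 4 bases before the Vpreb1 start and from 250 to 148 bases before the Vpreb2 start. These matches describe letters only, and binding was not measured.

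Igll1 and Vpreb1 lie side by side on the minus strand of chromosome 16, Igll1 at 16860671 to 16863985 and Vpreb1 at 16868401 to 16869255, with 4415 bases between them. Vpreb2 lies 1110189 bases from Vpreb1 on the same chromosome, at 17979445 to 17981274. Rag1 (101638252 to 101649532) and Rag2 (101624712 to 101632528) are neighbours on chromosome 2 with 5723 bases between them. Vpreb3 is on chromosome 10 (75943024 to 75949657) and Dntt on chromosome 19 (41029275 to 41059525).

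**Figure D1:**
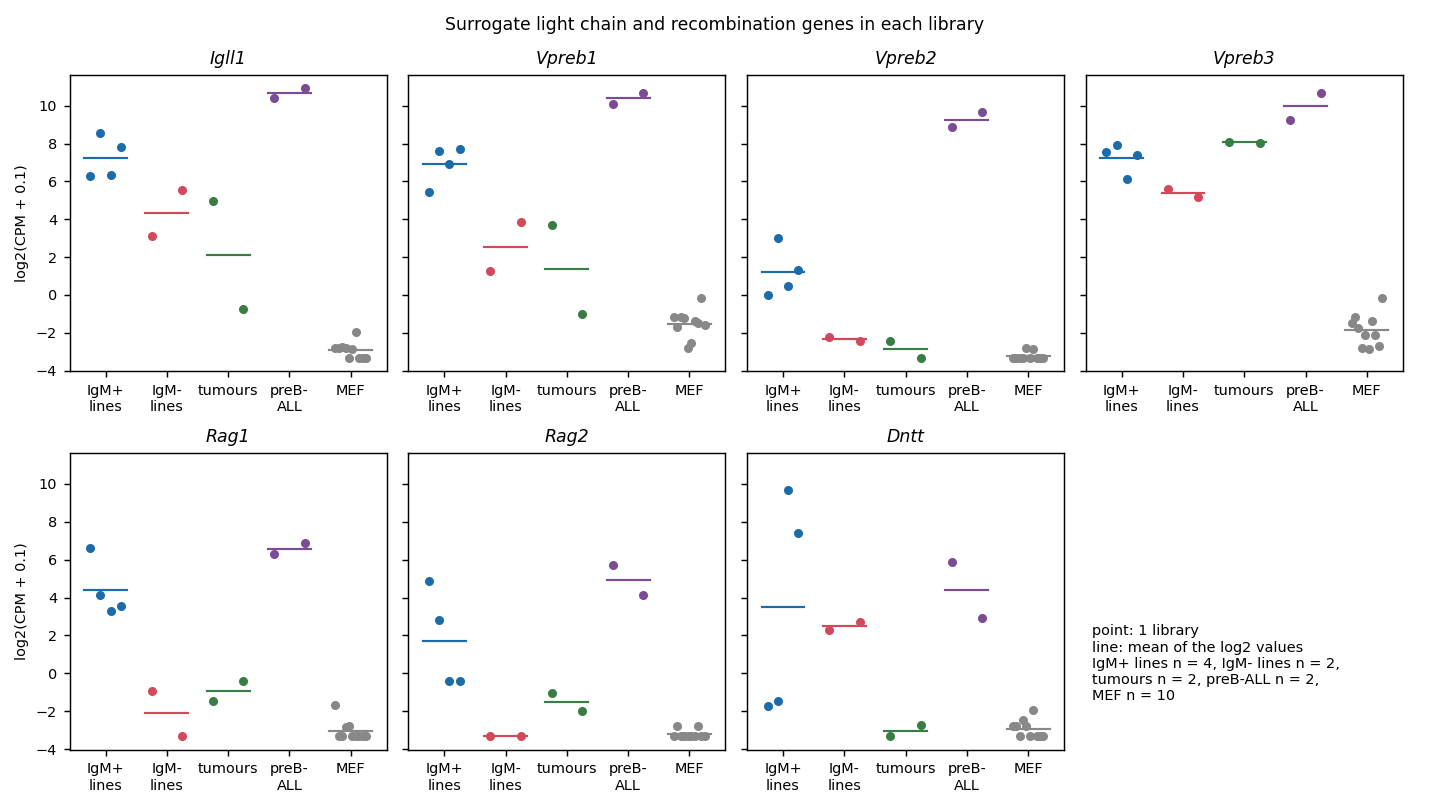
Level of each of the 7 genes in every library, as log2(CPM + 0.1), by group. Points are libraries and lines are means of the log2 values; the preB-ALL were highest for Igll1, Vpreb1, Vpreb2 and Vpreb3, Dntt split the IgM-positive lines, and the MEFs stayed at or below 0.798 CPM for every gene.

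Igll1 encodes λ5, the constant-like component of the surrogate light chain. Its level was 78.6, 377, 80.2 and 225 CPM in the IgM-positive lines and 8.52 and 46.8 CPM in the IgM-negative lines. Tumour library 20 had 31.3 CPM and tumour library 21 had 0.499 CPM, or 10 reads. The preB-ALL had 1369.6 and 1954 CPM, and no MEF library exceeded 0.162 CPM. The order of means ran from preB-ALL (1662 ± 413, SD, n = 2) over IgM-positive lines (190.4 ± 142, n = 4) and IgM-negative lines (27.6 ± 27.1, n = 2) to the tumours (15.9 ± 21.8, n = 2), and only the last pair of neighbours overlapped. Every lymphoma line thus kept an Igll1 signal above the MEFs, with 44.3-fold between the lowest and the highest line. In bulk RNA fewer cells with the transcript and less transcript per cell cannot be told apart.

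Vpreb1, which encodes the variable-like component, followed the same order. It stood at 43.2, 195, 120.3 and 209.9 CPM in the IgM-positive lines, and at 2.30 and 14.2 CPM in the IgM-negative lines. Tumour library 20 had 13.0 CPM, tumour library 21 had 0.399 CPM (8 reads), and the preB-ALL had 1102 and 1651 CPM. The MEFs reached 0.796 CPM, so the level in tumour library 21 lay within the MEF background and the level in all other B lineage libraries lay above it. Across the 10 B lineage libraries the log2 levels of Igll1 and Vpreb1 correlated with a Pearson r of 0.98, and with 0.96 over the 8 libraries without preB-ALL. Vpreb1 was the gene most like Igll1 among 14217 genes and Igll1 the one most like Vpreb1, followed for Igll1 by Dnajb1 (r = 0.94) and Dnm1 (r = 0.92), and for Vpreb1 by Dnajb1 (r = 0.93) and Arfgap3 (r = 0.93). The libraries share groups and sequencing runs, so these correlations are a description. Igll1 gave 1.78, 1.86, 0.659 and 1.06 reads per read of Vpreb1 and Vpreb2 together in the IgM-positive lines in the same order, 3.52 and 3.28 in the IgM-negative lines, 2.39 and 1.25 in the tumours (the last on 10 and 8 reads), and 0.877 and 0.794 in the preB-ALL, where Vpreb2 added to the denominator.

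Vpreb2 set the preB-ALL apart from all lymphoma libraries. The preB-ALL had 461 and 809.9 CPM, whereas the IgM-positive lines had 0.892, 8.02, 1.29 and 2.44 CPM, and the IgM-negative lines had 0.117 and 0.0862 CPM, which are 3 and 2 reads. Tumour library 20 had 2 reads and tumour library 21 had none, where 0 reads allow up to 0.150 CPM. The values of the IgM-negative lines and the tumours were thus at or near the limit that a count of 0 allows, and the MEFs did not exceed 0.0432 CPM. The genes most like Vpreb2 were Adgrg3 (r = 0.98), Lix1l (r = 0.97) and Tmem167b (r = 0.97).

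The transcripts of Vpreb1 and Vpreb2 matched at 739 of 759 aligned bases (97.4%), with identical runs of up to 196 bases, and how reads that fit both were treated is not given in the sources used here. The split between them is therefore uncertain, and the part of read assignment in the following contrast was not tested. Vpreb2 took 29.5% (95% Wilson interval 28.9 to 30.1%) and 32.9% (32.4 to 33.4%) of the reads of both genes in the preB-ALL. It took 2.02% (1.34 to 3.04%) in line 14_179_IgMp, 3.95% (3.46 to 4.5%) in line 15_180_IgMp, 1.06% (0.760 to 1.48%) in line 16_202_IgMp and 1.15% (0.870 to 1.52%) in line 17_213_IgMp. The intervals cover counting error only. In line 18_214_IgMn, with 62 reads of both genes, the share of 4.84% had an interval of 1.66 to 13.3%, and in tumour library 21 the 8 reads gave no usable share. All 7 lymphoma libraries with more than 8 reads lay below both preB-ALL, beyond counting error. With both genes summed, the level was 44.1 to 212 CPM in the IgM-positive lines and 1562.5 and 2461 CPM in the preB-ALL.

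**Figure D2:**
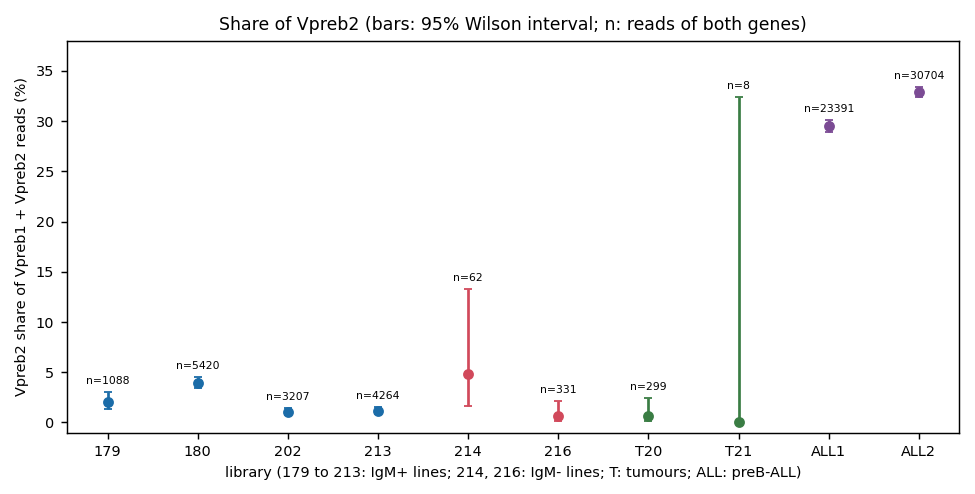
Share of Vpreb2 in the reads of Vpreb1 and Vpreb2, in percent, for each B lineage library (lines by mouse number) with its 95% Wilson interval and the number of reads above it. The preB-ALL lie at 29.5% and 32.9%; the lines lie between 0.604% and 4.84%, and tumour library 21 rests on 8 reads.

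Vpreb3 was the one member at higher levels in the tumours than in every line. Tumour libraries 20 and 21 had 275 and 261 CPM, above all 4 IgM-positive lines with 185, 242, 69.6 and 168 CPM. The IgM-negative lines had 48.8 and 36.3 CPM, and the preB-ALL had 599.8 and 1658 CPM. Group means fell without overlap between neighbours from preB-ALL (1129 ± 749, SD, n = 2) to tumours (268 ± 9.44, n = 2), IgM-positive lines (166 ± 71.8, n = 4) and IgM-negative lines (42.5 ± 8.81, n = 2). Across the 10 libraries its log2 level correlated with that of Vpreb1 at r = 0.51 and with that of Vpreb2 at r = 0.73, and without the preB-ALL at 0.04 and 0.21. The genes most like it were Tgfb1 (r = 0.98), Cdk2ap2 (r = 0.98) and Psd3 (r = 0.97). Vpreb3 shares bases with the pseudogene Gm16221, which is not in the table.

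Per kilobase of its GENCODE transcript, Igll1 averaged 1910.2 CPM per kb in the preB-ALL, Vpreb3 1807 CPM per kb, Vpreb1 1797 CPM per kb and Vpreb2 837 CPM per kb. Vpreb3 stood below Igll1 in preB-ALL 1 (959.7 against 1574 CPM per kb) and above it in preB-ALL 2 (2653 against 2246 CPM per kb). In the IgM-positive lines the means were 266 CPM per kb for Vpreb3, 219 CPM per kb for Igll1, 186 CPM per kb for Vpreb1 and 4.16 CPM per kb for Vpreb2. In the tumours Vpreb3 averaged 429 CPM per kb against 18.3 CPM per kb for Igll1 and 8.75 CPM per kb for Vpreb1. The recombinase genes were far lower on this scale, with 14.8 CPM per kb for Rag1 and 10.4 CPM per kb for Rag2 in the preB-ALL.

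Rag1, the catalytic component of the recombinase, gave 98.1 CPM in line 14_179_IgMp, within the range of the preB-ALL (77.8 and 118 CPM). Lines 15_180_IgMp, 16_202_IgMp and 17_213_IgMp had 17.3, 9.51 and 11.7 CPM. The IgM-negative line 18_214_IgMn had 0.430 CPM, or 11 reads, and line 19_216_IgMn had no read, which allows up to 0.129 CPM. Tumour libraries 20 and 21 had 0.263 and 0.648 CPM, and the MEFs reached 0.215 CPM. The IgM-positive lines and the preB-ALL therefore stood above every IgM-negative line and tumour, and line 14_179_IgMp stood apart from the other IgM-positive lines.

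Rag2, its partner, had 29.4 CPM in line 14_179_IgMp, 6.93 CPM in line 15_180_IgMp, 0.644 CPM in line 16_202_IgMp and 0.647 CPM in line 17_213_IgMp. Both IgM-negative lines had 0 reads of Rag2 among 48795794, the tumours had 0.394 and 0.150 CPM, and the preB-ALL had 53.4 and 17.7 CPM. The IgM-positive lines thus spread over 45.6-fold in Rag2 but over 10.3-fold in Rag1. Lines 14_179_IgMp and 15_180_IgMp gave 3.34 and 2.50 reads of Rag1 per read of Rag2, and lines 16_202_IgMp and 17_213_IgMp gave 14.8 and 18.0. The 2 preB-ALL gave 1.46 and 6.66, the higher ratio in the one whose label holds RagCre. Whether that allele adds or removes reads of either gene was not tested. Across the 10 libraries the log2 levels of Rag1 and Rag2 correlated at r = 0.91, and at 0.89 without the preB-ALL. The genes most like Rag1 were Zc2hc1a (r = 0.95), Rab43 (r = 0.93) and Fam13a (r = 0.93), and those most like Rag2 were Adamts7 (r = 0.97), Kctd15 (r = 0.94) and Tbc1d2b (r = 0.93). Rag2 overlaps the gene Iftap, and the library kit does not mark strand. Iftap stood at 10.1 and 12.4 CPM in the preB-ALL and at most 0.608 CPM in the lines, and MEFs with 4.52 to 10.9 CPM of Iftap had at most 0.0430 CPM of Rag2. The part of Iftap reads in the Rag2 counts was not tested.

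Dntt, the pro-B gene of the set, had the widest range. Line 16_202_IgMp had 833 CPM, more than either preB-ALL (59.4 and 7.45 CPM), and line 17_213_IgMp had 173 CPM. Lines 14_179_IgMp and 15_180_IgMp, also IgM positive, had 0.203 and 0.262 CPM, which are 5 and 7 reads. The IgM-negative lines lay between these with 4.77 and 6.42 CPM, the tumours had 0 and 1 read, and the MEFs reached 0.162 CPM. The IgM-positive lines therefore did not form 1 group for Dntt and spread over 4106-fold. The 2 IgM-positive lines with Dntt were those with under 1 CPM of Rag2, and the other 2 had the most Rag2 of all lines. Of the reads of Dntt and Rag1 together, Dntt took 98.9% and 93.7% in lines 16_202_IgMp and 17_213_IgMp, 0.206% and 1.49% in lines 14_179_IgMp and 15_180_IgMp, 91.7% and 100% in the IgM-negative lines, where Rag1 had 11 and 0 reads, and 43.3% and 5.94% in the preB-ALL. The genes most like Dntt were C330026H20Rik (r = 0.97), Arpp21 (r = 0.95) and Svil (r = 0.95); Arpp21 stood at 77.5 and 128 CPM in lines 16_202_IgMp and 17_213_IgMp and had no read in lines 14_179_IgMp and 15_180_IgMp.

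**Figure D3:**
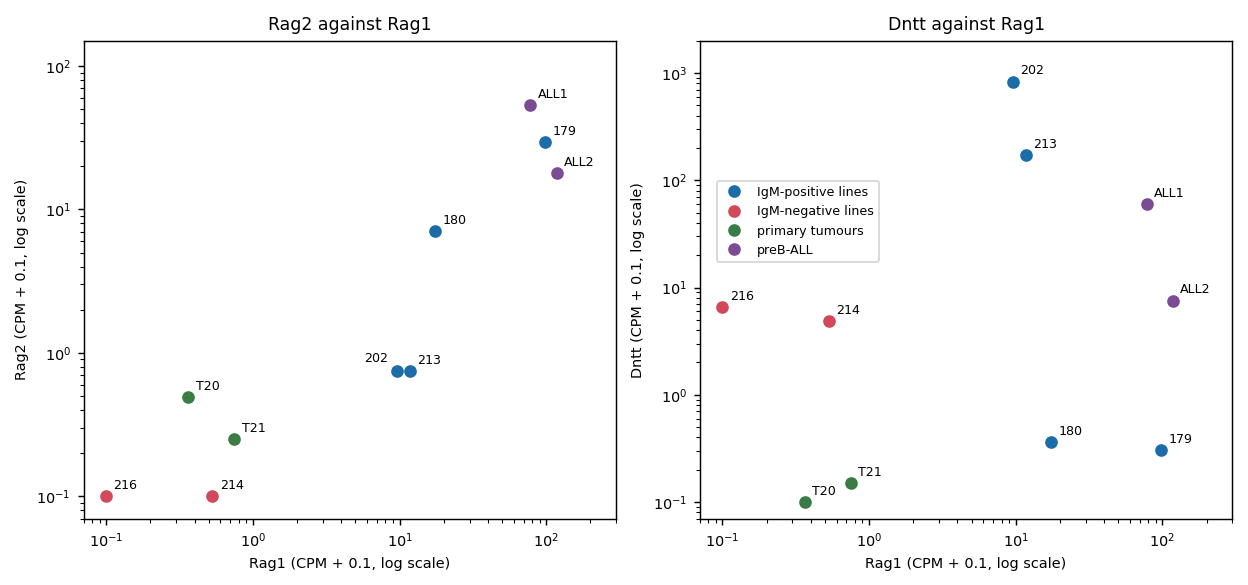
Rag2 against Rag1 (left) and Dntt against Rag1 (right), each as CPM + 0.1 on log axes, 1 point per B lineage library (lines by mouse number, T for tumour library, ALL for preB-ALL). Lines 16_202_IgMp and 17_213_IgMp sit high in Dntt and low in Rag2, lines 14_179_IgMp and 15_180_IgMp the reverse, and the tumours are low for all 3 genes.

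The first comparison asked whether the IgM-negative lines differed from the IgM-positive lines. None of the 7 genes passed the test across all genes (limma on log2 scaled CPM, adjusted p by Benjamini-Hochberg), although 6 of the 7, beside 11.3% of all genes, had an unadjusted p under 0.05 and the groups of those 6 did not overlap, all lower in the IgM-negative lines. The test called 0.597% of 12386 genes (0.549% lower and 0.0484% higher), and the 2 groups did not overlap for 22.6% of all genes (14.8% lower and 7.82% higher). The log2 fold changes of the IgM-negative over the IgM-positive lines were -6.47 ± 1.12 (SE) for Rag1 with an adjusted p of 0.0921, -5.02 ± 1.59 for Rag2, -4.31 ± 0.87 for Vpreb1, -3.48 ± 0.87 for Vpreb2, -2.87 ± 0.87 for Igll1 and -1.79 ± 0.47 for Vpreb3, with adjusted p between 0.139 and 0.328 for the last 5. These values are on the log2(CPM + 0.1) scale, which understates changes of low genes. With single libraries left out they ranged from -4.05 to -1.66 for Igll1 and from -5.56 to -3.04 for Vpreb1. Over the reads of the groups, Rag2 was at least 156-fold lower in the IgM-negative lines, with the floor set at 3 reads over both lines. Line 14_179_IgMp gave 725 of the 940 reads, and the bound was 47.8-fold without it, 74.3-fold without 18_214_IgMn and 82.0-fold without 19_216_IgMn. Lines 16_202_IgMp and 17_213_IgMp gave only 17 and 13 of these reads, so the bound does not describe them. Dntt overlapped between the groups and its difference was -0.94 ± 3.55 (adjusted p = 0.941). Only 0.170% of genes had a lower fold change than Rag1, and 0.638% a lower one than Rag2. Of the same 7 genes, edgeR's quasi-likelihood test and limma-voom called none, and DESeq2, which called 6.05% of all genes, called 5 lower (Igll1, Vpreb1, Vpreb2, Vpreb3 and Rag2) and gave Rag1 no adjusted p. Without line 16_202_IgMp, limma called Vpreb3 (log2 fold change -2.15, adjusted p = 0.0270) and with all 10 B lineage libraries in 1 fit it called Rag1 (adjusted p = 0.0222).

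Other stage genes in the same contrast gave no call either. Among 12 joining factors, 20 transcription factors of the early B programme, 8 pro-B and pre-B surface genes, 12 immature and mature B genes and 11 pre-BCR signalling genes tested, limma called 0, with 2, 3, 4, 5 and 2 genes at an unadjusted p under 0.05, beside 11.3% of all genes. Of these genes Xrcc5 (+0.82 log2), Flt3 (+3.74) and Iglc2 (+4.05) were at higher values in the IgM-negative lines, and the rest at lower. The edgeR test and limma-voom also called 0 in each list, and DESeq2 called 0, 2, 4, 2 and 2, beside 6.05% of all genes. The median log2 fold changes of these lists were -0.21, -0.39, -1.40, -0.67 and -0.60 beside -0.02 over all genes, and -3.48 over the 7 members. Of the 20 transcription factors, Ebf1 had 31.9 and 10.6 CPM in lines 18_214_IgMn and 19_216_IgMn against 52.5 to 114 CPM in the IgM-positive lines (log2 -2.04, limma adjusted p = 0.241). Runx1 (-1.20) and Foxo1 (-0.91) did not overlap between the groups either. The other factors of that list overlapped, among them Tcf12 (+0.25).

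The second comparison set the lines against the preB-ALL, a pre-B stage tumour. In the IgM-positive lines 4 of the 7 genes were lower and none was higher, where limma called 39.5% of 13961 genes, 20.7% as lower. The groups did not overlap for the same 4 genes, and for 57.3% of all genes, 39.3% with the lines lower. Vpreb2 had a log2 fold change of -7.71 ± 0.79 (SE, adjusted p = 0.000250), Vpreb1 of -3.14 ± 0.81 (adjusted p = 0.0180), Igll1 of -3.09 ± 0.81 (adjusted p = 0.0191) and Vpreb3 of -2.38 ± 0.53 (adjusted p = 0.00994). Only 0.637% of genes had a lower fold change than Vpreb2. Rag1 (-1.86 ± 1.04, adjusted p = 0.191), Rag2 (-2.90 ± 1.5, adjusted p = 0.162) and Dntt (-0.59 ± 3.33, adjusted p = 0.903) overlapped between the groups. The direction for Dntt was not settled: its mean CPM was higher in the lines (251 against 33.4), and edgeR (3.25) and DESeq2 (3.14) gave log2 fold changes of the other sign. Whether these calls hold without a preB-ALL cannot be decided, since 1 library is then left in that group and only the lines supply the spread. With single libraries left out, fold changes ranged from -8.34 to -7.31 for Vpreb2 and -3.42 to -2.65 for Vpreb1. They ranged from -3.55 to -2.78 for Igll1 and -3.10 to -1.75 for Vpreb3. With all 10 B lineage libraries in 1 fit Igll1 (adjusted p = 0.106) and Vpreb1 (adjusted p = 0.0684) were not called. Without line 14_179_IgMp, Rag1 (-2.60, adjusted p = 0.0346) and Rag2 (-3.97, adjusted p = 0.0296) were called lower as well.

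In the IgM-negative lines, set against the same preB-ALL libraries, 6 of the 7 genes were lower, where limma called 43.1% of genes and 24.1% as lower, and in CPM the groups did not overlap for any of the 7, all lower in the lines, nor for 76.4% of all genes (48.8% lower). This contrast and that of the IgM-positive lines came from 1 fit of IgM-positive lines, IgM-negative lines and preB-ALL. The p-values therefore rest in part on the spread among the IgM-positive lines. On the TMM-scaled log2 values that were tested, Dntt did overlap (2.43 and 2.80 in the lines, 5.70 and 2.62 in the preB-ALL). The log2 fold changes were -11.23 ± 0.91 for Vpreb2 (adjusted p = 0.000113), -8.37 ± 1.2 for Rag1 (adjusted p = 0.00137), -8.00 ± 1.74 for Rag2 (adjusted p = 0.00847), -7.44 ± 0.93 for Vpreb1 (adjusted p = 0.000740), -5.94 ± 0.93 for Igll1 (adjusted p = 0.00205) and -4.15 ± 0.61 for Vpreb3 (adjusted p = 0.00151). Rag2 was at least 604-fold lower over the reads of the groups, and at least 288-fold without preB-ALL 1, which gave 799 of the 1020 reads, 287-fold without 18_214_IgMn and 317-fold without 19_216_IgMn. Dntt gave -1.51 ± 3.84 (adjusted p = 0.778). Leaving out an IgM-negative line or a preB-ALL leaves 1 library in that group, so such fits cannot decide whether the calls hold. With single libraries left out, fold changes ranged from -11.60 to -10.89 for Vpreb2, -9.65 to -7.09 for Rag1 and -8.84 to -7.16 for Rag2. They ranged from -8.70 to -6.16 for Vpreb1, -7.13 to -4.73 for Igll1 and -4.87 to -3.52 for Vpreb3. With all 6 lines as 1 group, 4 of the 7 were lower (Igll1, Vpreb1, Vpreb2 and Vpreb3), where 43.4% of genes were called, 22.5% as lower, and the groups of 53.4% did not overlap, 37.4% with the lines lower. Those 4 calls changed with single lines: in limma Vpreb1 was lost without 14_179_IgMp (adjusted p = 0.0666, while Rag2 was then called, adjusted p = 0.0300) and without 19_216_IgMn (adjusted p = 0.0740). With any 1 library left out, preB-ALL included, fold changes ranged from -4.52 to -3.42 for Igll1 and -5.03 to -3.75 for Vpreb1. Those of Vpreb2 ranged from -9.51 to -8.39 and those of Vpreb3 from -3.69 to -2.34.

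**Figure D4:**
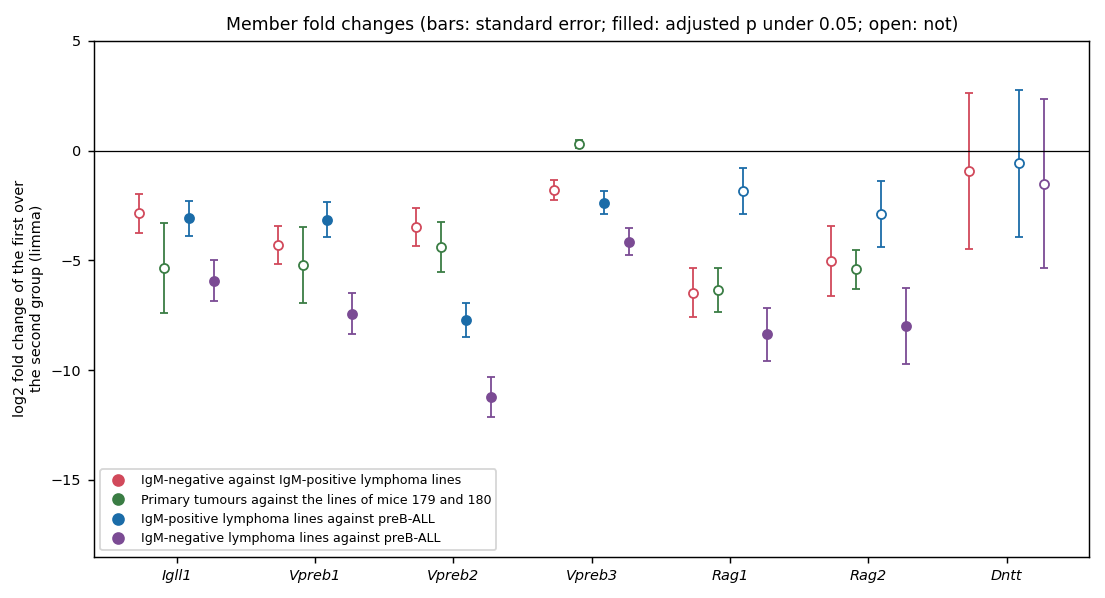
Log2 fold change of each gene in 4 comparisons, with standard errors from limma on log2(scaled CPM + 0.1). Filled points have an adjusted p under 0.05: 4 genes in the IgM-positive and 6 in the IgM-negative lines against preB-ALL, and none in the other comparisons; Dntt was not tested between tumours and lines.

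Stage genes outside the set were called in both directions against the preB-ALL. These counts stand beside 18.8% of all genes higher and 20.7% lower in the IgM-positive lines, and 19.0% higher and 24.1% lower in the IgM-negative lines, so that 4 of 20 lower or 2 of 12 higher is near the share of all genes. In the IgM-positive lines 1 of 8 pro-B and pre-B surface genes was higher (Cd24a, +0.87 log2) and none lower, beside 5 of 13 immature and mature B genes lower, among them Cr2 (complement receptor), Ighd (the IgD heavy chain) and Cd55 with log2 fold changes of -5.31, -4.16 and -3.37. Igkc, a light chain gene of that list, went the other way without a call (529 against 200 CPM, +2.56, limma adjusted p = 0.0557). With all 6 lines as 1 group, limma called Igkc higher (+2.37, adjusted p = 0.0465), the 1 higher gene of that list beside 5 lower. Of 11 pre-BCR signalling genes 3 were lower, Ccnd3 (-2.44), a cyclin that pre-B cells need, Cd79b (-1.37) and Cd79a (-1.13), and 1 was higher, Plcg2 (+1.10). Of 20 transcription factors 4 were lower, among them Runx1 (-1.38), Foxo1 (-1.54), which acts on both Rag genes, and Pax5 (-1.55), and 2 were higher (Ikzf1, +0.93, and Gfi1, +1.01). Of 12 joining factors 2 were higher, among them Hmgb1 (+1.90), whose protein bends DNA for the recombinase, and Paxx (-1.77) was lower. In the IgM-negative lines the corresponding counts were 1 higher and 3 lower of 8 surface genes (Cd93 -5.59, Bst1 -4.64, and Enpep, which had 1 read in the IgM-negative lines, lower), 7 lower of 13, 6 lower and 1 higher of 11, 6 lower of 20 (among them Ebf1, -2.91), and 2 higher and 1 lower of 12. The medians of the 5 lists lay between -1.13 and 0.29 in the IgM-positive and between -2.51 and -0.03 in the IgM-negative lines, beside -0.04 and -0.09 over all genes. Medians of the 7 members were -2.90 and -7.44.

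The third comparison placed the tumour tissue beside the pair of lines that came from those mice, 14_179_IgMp and 15_180_IgMp. None of the 6 genes tested passed (limma), 4 had an unadjusted p under 0.05, as did 25.9% of all genes, and for all 6 the groups did not overlap, 5 lower and 1 higher in the tumours. Groups did not overlap for 57.1% of all genes (26.0% lower and 31.1% higher), and the test called 0.330% of 12719 genes (0.0629% lower and 0.267% higher). Rag1 (-6.35 ± 1.00, SE, adjusted p = 0.0711), Rag2 (-5.40 ± 0.89, adjusted p = 0.0751), Igll1 (-5.36 ± 2.05, adjusted p = 0.200), Vpreb1 (-5.22 ± 1.74, adjusted p = 0.163) and Vpreb2 (-4.40 ± 1.15, adjusted p = 0.113) were at lower and Vpreb3 at higher values in the tumours (+0.29 ± 0.17, adjusted p = 0.348). Only 0.0550% of genes had a lower fold change than Rag1, and 0.165% a lower one than Igll1. With single libraries left out, the log2 fold change ranged from -8.16 to -2.52 for Igll1 and from -7.52 to -2.87 for Vpreb1. Tumour library 21 had 10 reads of Igll1 and 8 of Vpreb1. Over the reads of both libraries of each group, Vpreb2 was 98.6-fold lower in the tumours (2 against 236 reads, exact interval 27.0 to 819, which covers counting error only). That ratio was 19.1 without 15_180_IgMp, which gave most of the reads, 172 without 14_179_IgMp, 52.5 without tumour library 21 and at least 30.7 without tumour library 20. Dntt had 1 read in the tumours and 12 in the lines and was not tested. The edgeR test and limma-voom called none of the 6, and DESeq2 called 3 (Vpreb2, Rag1 and Rag2) where it called 16.5% of all genes. In a limma fit of all 10 B lineage libraries the same 3 were called, among 5.42% of all genes. With a replicate block for the mouse as the titles give it, 5 of the 6 were called lower (all but Vpreb3, adjusted p from 0.00609 to 0.0167), where that fit called 28.3% of all genes, whereas with the mouse as the descriptions give it no gene was called.

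The 2 tumours also differed between themselves. Tumour library 20, which its title ties to the mouse of 15_180_IgMp, had 62.7 times the Igll1 of tumour library 21, and 15_180_IgMp had 4.80 times the Igll1 of 14_179_IgMp. For Rag1 the order was the other way in both pairs, on 6 and 13 reads in the tumours. For Rag2 the pairs differed in order: tumour library 20 had more than tumour library 21 (9 and 3 reads), and 15_180_IgMp had less than 14_179_IgMp. Among other stage genes, limma called Il7r, the IL-7 receptor of pro-B and pre-B cells, lower in the tumours (2.07 against 137 CPM) and Ms4a1, which encodes CD20, and Cr2 higher (664 against 5.76 CPM and 13.7 against 0.214 CPM), each with an adjusted p of 0.0498. None of the 3 was called by the edgeR test or limma-voom, nor by limma with RLE scaling, with no filter on low values or with any 1 library left out, where no gene at all was called. DESeq2 called 15 of the 15 immature and mature B genes, 4 of 8 surface genes, 4 of 12 joining factors, 5 of 19 transcription factors and 5 of 11 pre-BCR signalling genes, beside 16.5% of all genes. All 15 immature and mature B genes had an unadjusted p under 0.05, beside the 25.9% of all genes, with a median log2 fold change of 4.15 beside 0.01 over all genes. The other lists had medians of 0.91 (pre-BCR signalling), 0.16 (joining factors), -0.33 (transcription factors) and -1.06 (surface receptors). Myeloid markers summed to 34.3 and 42.5 CPM in the tumours against 6.11 and 13.1 CPM in the 2 lines, and Adgre1, a macrophage marker, had 13.3 and 6.33 CPM in tumour libraries 20 and 21 and no read in the lines. The 12 T cell and thymocyte markers summed to between 35.6 and 65.1 CPM in the tumours, where 11 of them had reads, and to between 7.46 and 62.9 CPM in the 2 lines. Fibroblast markers summed to between 15.8 and 172 CPM in the tumours and between 5.07 and 56.3 CPM in the 2 lines. The part of other cells of the tissue in these differences was not tested.

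**Figure D5:**
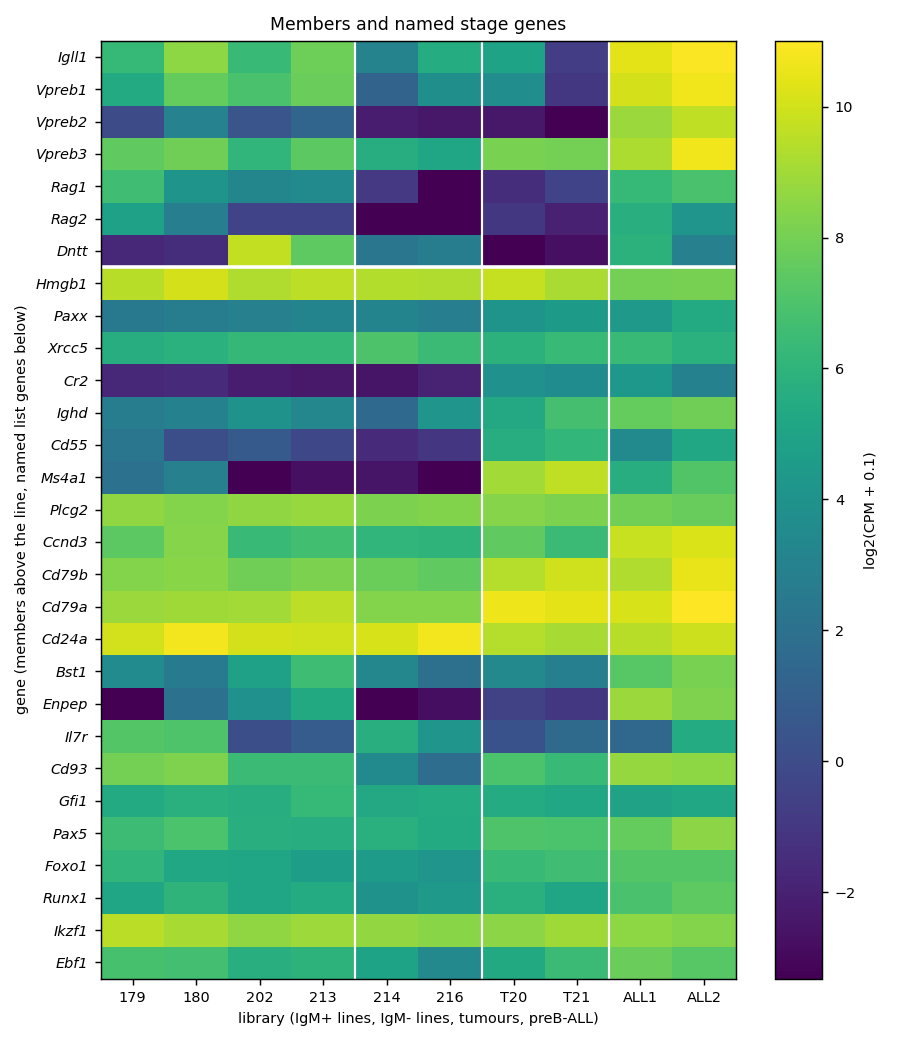
Log2(CPM + 0.1) of the 7 genes (above the white line) and of the stage genes named by the rule for lists (below), in the 10 B lineage libraries, lines by mouse number; colour runs from low (dark) to high (yellow). The tumours combine low Rag1, Rag2 and Dntt with high Ms4a1 and Cd79a, and the preB-ALL combine the highest surrogate light chain levels with reads of both Rag genes.

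Set beside the order of B cell stages, the libraries combined the 7 genes in different ways. The preB-ALL had all 7 above the MEFs, with Igll1, Vpreb1, Vpreb2 and Vpreb3 at their highest. Lines 16_202_IgMp and 17_213_IgMp had Dntt, Igll1, Vpreb1, Vpreb3 and Rag1 well above the MEFs and under 1 CPM of Rag2. Lines 14_179_IgMp and 15_180_IgMp had Igll1, Vpreb1, Vpreb3 and both Rag genes and at most 7 reads of Dntt. Lines 18_214_IgMn and 19_216_IgMn had Igll1, Vpreb1, Vpreb3 and Dntt above the MEFs and no read of Rag2. Their Vpreb3 (48.8 and 36.3 CPM) was below that of every IgM-positive line, and Rag1 had 11 and 0 reads. The tumours had Vpreb3 at 275 and 261 CPM, Igll1 at 31.3 and 0.499 CPM, 3 to 13 reads each of Rag1 and Rag2, and at most 1 read of Dntt.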

How the data were processed

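RNA was sequenced from 20 mouse libraries with a TruSeq kit that does not mark strand. Per the labels and the study's methods, the authors aligned reads to GRCm38 with Rsubread, counted them per Entrez gene and deposited CPM; how reads matching several genes were treated is not given in the sources used here. The deposited CPM were whole multiples of 1 read in 100% of values (tolerance 0.01), so reads were recovered. Each gene was tested with limma (lmFit and eBayes with trend) on log2(TMM-scaled CPM + 0.1) after edgeR's filterByExpr on the recovered reads, two-sided, with Benjamini-Hochberg adjustment over all genes tested and a threshold of 0.05. R 4.3.3, limma 3.58.1 and edgeR 4.0.16 were used, and Python 3.11.15 for levels, intervals and sequences. Alternatives were edgeR's quasi-likelihood test, DESeq2 and limma-voom on the recovered reads, other scalings, pseudocounts and filters, all 10 B lineage libraries in 1 fit, summed Vpreb1 and Vpreb2, a replicate block, and leaving out each library. In the fit of all 10 libraries the lines 14_179_IgMp and 15_180_IgMp formed a group of their own for the tumour comparison.

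The members and gene lists were chosen with earlier results of these data known. Named were all 7 members, the 3 genes most like each by Pearson r, and from each list up to 3 genes per direction with the smallest adjusted p under 0.05 and groups that do not overlap; Ighm checked the labels, with Igkc and Ptprc also examined (Igkc 174.8 to 723.8 CPM and Ptprc 166.4 to 362.2 CPM in the lines). Adgre1 and Iftap, Igkc against preB-ALL, and Ebf1, Runx1, Foxo1, Tcf12, Xrcc5, Flt3 and Iglc2 between the lines, were named after their values were seen. Fitting was tested on simulated data. Whether the mouse numbers pair tumours with lines could not be settled, since titles and descriptions disagree: deviations from the group means correlated at r = 0.60 over 12719 genes in the pairing of the titles, and with 2 libraries a group the other pairing gives the same value with its sign turned. Erythroid markers summed to at most 4.79 CPM and plasma cell markers to at most 215 CPM in the B lineage libraries. A further label check is not reported here.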

Additional observations from a re-analysis of the deposited data

Results flagged for a closer look

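A few lines stood apart from the rest of their group in CPM by a gap test (Dixon's ratio over a 95% critical value). Chance passes that value in about 1 of 20 groups only where values are normally distributed. The CPM were skewed, from 0.203 to 833 CPM for Dntt over the lines, so that rate cannot be assumed here. Line 14_179_IgMp had 98.1 CPM of Rag1, apart from the other 3 IgM-positive lines (gap ratio 0.912) and from the other 5 lines (0.824). It also had 29.4 CPM of Rag2, apart from the other 5 lines (0.764). Line 16_202_IgMp had 833 CPM of Dntt (0.793) and line 15_180_IgMp had 8.02 CPM of Vpreb2 (0.703), both apart from the other 5 lines. No other member was set apart by 1 line in these 2 groupings, and groups of fewer than 4 libraries could not be examined in this way. The grouping of all lines mixed IgM-positive and IgM-negative lines. Whether any line stands apart on the log2 scale used for the fold changes was not tested.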

How the results depend on the processing

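Of 569 alternative values for 34 member fold changes, 509 kept their direction and side of the threshold, 18 lost a call, 29 gained one and 13 changed sign; all 13 were of Dntt, whose difference passed in no comparison. Dntt was positive in the comparison of lines with preB-ALL under edgeR (2.68) and DESeq2 (2.57), in that of IgM-positive lines with preB-ALL under edgeR (3.25), DESeq2 (3.14) and a pseudocount of 1 CPM (0.24), and it ranged with single libraries left out from -2.67 to 1.14 between IgM-negative and IgM-positive lines, from -2.47 to 0.61 for all lines and from -2.68 to 1.15 for IgM-positive lines against preB-ALL. Between IgM-negative and IgM-positive lines, 74 genes were called, against 24 (edgeR), 749 (DESeq2), 1 (voom), 47 (pseudocount of 1 CPM), 153 (all 10 libraries in 1 fit) and 35 to 117 with a library left out (35 without 14_179_IgMp or 17_213_IgMp, 48 without 15_180_IgMp, 117 without 19_216_IgMn); members called were 0, against 5 (DESeq2), 1 (10 libraries) and 0 to 1. Lines against preB-ALL gave 6059 genes, 3844 without genes high in fibroblasts, 3668 with the tumours in place of lines 14_179_IgMp and 15_180_IgMp, and 3177 (without preB-ALL 2) to 6061 with a library left out, where members went from 4 to between 1 and 4. For the IgM-positive lines 5513 genes became 3213 without genes high in fibroblasts and 2834 (without preB-ALL 2) to 5198 with a library left out, and members 2 in the fit of 10 libraries and 1 to 6; for the IgM-negative lines 6015 became 3562 and 3631 (without preB-ALL 2) to 6009, with 3968 without 18_214_IgMn. Omitting TMM scaling moved the median of all genes in lines against preB-ALL from -0.07 to -0.42, with 1691 higher and 4400 lower calls in place of 2914 and 3145 (1516 and 3993 in place of 2628 and 2885 for the IgM-positive lines, 1488 and 4545 in place of 2655 and 3360 for the IgM-negative lines); no call of a member changed. Between tumours and lines 42 genes were called, against 0 (edgeR, voom, RLE scaling, no filter, each library left out), 2100 (DESeq2), 79 (no TMM), 779 (10 libraries) and 1418 (all 4 IgM-positive lines); members were 0, against 3 under DESeq2, the 10 libraries and all 4 lines. The replicate block gave 3600 genes and 5 members when paired by the titles, and 0 genes and 0 members when paired by the descriptions. The cause of these shifts was not tested. Leaving out a preB-ALL, an IgM-negative line, a tumour or a line beside the tumours can leave 1 library in its group. The spread of that group is then unknown. Depth limits Vpreb2, Rag1 and Rag2 in the tumours and IgM-negative lines and Dntt in the tumours, where a library's 3 reads stand for 0.117 to 0.150 CPM.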
